A study of Mus musculus with 12 samples.

Results

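RNA of isolated nuclei was compared with RNA of whole cells in mouse embryonic stem cells (ESC) that had received no doxycycline (dox). Every gene whose group mean reached 1 RPKM (read counts scaled to gene length and library size) in at least 1 of these fractions was included, which kept 9714 of the 19716 genes of the authors' deposited table. For each gene the difference of the deposited log2 means, nuclear minus total, was centred on the median gene. A value of 1 therefore means a level 2-fold further toward nuclear RNA than the median gene, and 0 is the median gene. The choice used levels and no test. Of the genes kept, 911 were under 1 RPKM in nuclear RNA and 320 under 1 RPKM in total RNA, so these entered through the higher fraction alone. This holds for every gene named below with a level under 1 RPKM in either fraction. At the threshold, which was applied with the deposited pseudocount of 0.001 RPKM included, Lrrn4 stood just inside at 0.6273 RPKM in nuclear and 0.9991 RPKM in total RNA, and Cpeb4 just outside at 0.6393 and 0.9989 RPKM.

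The study asks how Argonaute proteins act on RNA in the nucleus of ESC. Its cells, at passage 8 to 15, grew on gelatin in serum medium with leukemia inhibitory factor. The library kit was directional, and ribosomal RNA was removed. All groups, those without dox included, carry a dox-inducible HA-Flag-AGO2 transgene, and the groups with dox had 2.5 ug/ml for 15 h. The groups with dox are used here only beside the main values and in the estimate of spread. The labels list 3 libraries of nuclear RNA without dox and 3 of total RNA without dox. The deposited means rest on 2 nuclear libraries of 15.6 and 18.9 M reads and on 3 total libraries of 15.3 to 16.9 M reads, as read from the deposited p-values and from the smallest steps of the RPKM values. Dox status is as labelled: Ago2, which the transgene should raise with dox, was at 8.65 and 9.12 RPKM in nuclear and total RNA labelled without dox and lower in both columns labelled dox. Whether reads of the transgene were counted at mouse Ago2 is not given in the sources used here, so its level may not check the label. No label says whether libraries came from separate cultures, nor whether nuclear and total RNA came from the same cultures. The p-values therefore measure only the spread between libraries. That spread was pooled over all groups, those with dox included, because the deposited p-values pool it. The deposited means are means of logs, so they act as geometric means and have no SD of their own. Below, each gene has its nuclear level and its total level in RPKM, then the centred log2 difference with its standard error (SE).

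Whole-cell RNA holds the nuclear RNA as well as the cytoplasmic RNA. In general, unspliced transcripts, many long noncoding RNAs and the small nucleolar RNAs (snoRNAs, which guide the chemical modification of ribosomal RNA) reside in the nucleus. Messenger RNAs of secreted and membrane proteins are translated on the endoplasmic reticulum (ER), whose membrane continues into the nuclear envelope.

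Most genes differed little between nuclear and total RNA. The middle part of the distribution ran from -0.35 at the lower quartile to 0.30 at the upper quartile, and 6709 genes (69.1%) lay within 0.5 of the median gene. Using limma with Benjamini-Hochberg adjustment at a threshold of 0.05, 1036 genes (10.7%) were higher in nuclear RNA and 1484 (15.3%) were lower, so that 25.9% were called in either direction and 41.1% of the calls were higher. Of these, 249 (2.56%) were at least 2-fold higher and 547 (5.63%) at least 2-fold lower. Before centring, the difference of the median gene, nuclear minus total, was -0.316 on the log2 scale, and without centring 9.67% of the calls were higher (360 higher, 3364 lower). All directions are relative to the median gene, and small positive differences change their sign without centring.

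**Figure D1:**
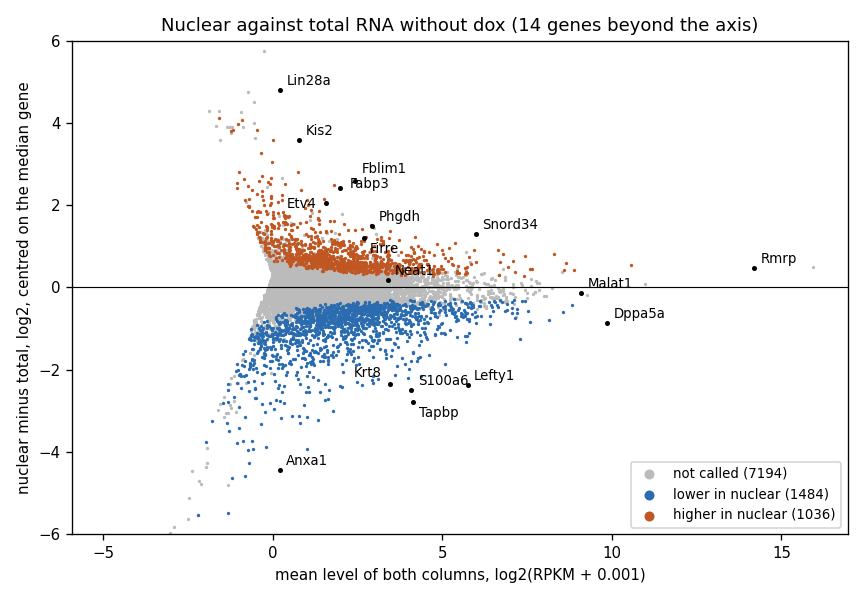
Centred difference, nuclear minus total (log2), against the mean log2 level of each of the 9714 genes; orange points were called higher in nuclear RNA, blue lower and grey neither, and 14 genes lie beyond 6 on the vertical axis. Lin28a, Kis2 and Fblim1 mark the upper side and Anxa1 and Tapbp the lower, whereas Malat1 and Neat1 sit near 0.

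The fraction label was first set against RNAs known to stay in the nucleus. Malat1, a nuclear speckle RNA (mm10 chromosome 19, 5795690 to 5802672, minus strand), stood at 467 RPKM in nuclear and 633 RPKM in total RNA. Its centred difference was -0.12 (SE 0.131, limma adjusted p = 0.524), so it was not placed apart from the median gene. Neat1, the scaffold of paraspeckles, had 10.004 and 11.01 RPKM and a difference of 0.18 (SE 0.114, limma adjusted p = 0.279), which is -0.14 without centring. Xist, the RNA that coats an inactive X chromosome, was low, at 1.78 and 1.86 RPKM, with a difference of 0.25 (limma adjusted p = 0.389) that is -0.07 without centring. None of these 3 RNAs passed the test. Of 21 tested nuclear long noncoding RNAs, 7 were higher in nuclear RNA and 0 were lower, with a median of 0.31. Without centring 3 of the 21 were higher and 1 lower, and the median was 0.00 to the second decimal. Mitochondrially encoded RNAs, which would mark cytoplasm, were not analysed here.

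Of the 7 called in this list of 21, Firre had the highest difference. This X-linked RNA, which contacts several chromosomes from its own locus (mm10 chromosome X, 50555744 to 50635321, minus strand), had 8.74 RPKM in nuclear and 4.696 RPKM in total RNA, a difference of 1.21 (SE 0.154, limma adjusted p = 0.00027). Neighbours from the imprinted Dlk1-Dio3 region also passed. Mirg had 11.6 and 6.93 RPKM (difference 1.06), Meg3 had 9.42 and 6.84 RPKM (0.78), and Rian had 26.02 and 20.5 RPKM (0.66). Mir17hg, the transcript that carries the miR-17 cluster, had 12.9 and 8.75 RPKM and a difference of 0.88. Nespas (0.58) and Lncenc1 (0.49) completed the calls. Over all 190 tested genes of GENCODE's long noncoding class, 45 (23.7%) were higher and 10 (5.26%) lower, with a median of 0.41, against 10.3% and 15.7% of 9252 protein-coding genes with a median of -0.01. Whether the authors' counting used strand is not given in the sources used here, so reads of Nespas and of other transcripts that overlap a gene on the opposite strand may not be separate from that gene.

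Long noncoding host genes of snoRNAs, in a list that does not hold every such host, were mostly on the nuclear side. They release snoRNAs from their introns, and 13 of the 18 tested were higher, 0 lower, at a median of 0.71. Snhg5 had 21.5 RPKM in nuclear and 13.4 in total RNA (0.99), Dancr 25.7 and 16.7 (0.94), Snhg12 29.7 and 20.4 (0.86), and Gas5 44.2 and 33.6 (0.71). Both Epb41l4aos (17.5 and 9.86 RPKM, 1.15) and Snhg17 (4.59 and 2.76 RPKM, 1.05) stood above these. Among 70 tested snoRNA and scaRNA genes, 14 (20%) were higher and 0 lower, and the median was 0.51. The median SE of GENCODE's snoRNA class was 0.319, against 0.182 over all tested genes. Once the trends on exon length and GC content were removed from the differences, 2 of the 70 were higher and the median was 0.04, so most of these calls and the position of the list depend on that step. Of the host genes, 12 of 16 were higher under the same step. Snord34 has 70 bases and Snora64 has 134, whereas the median exon length was 1060 bases in the shortest bin of tested genes. At such lengths the trend can follow the small RNA genes themselves, so its removal can also take out a difference of their class. Whether the shift of the snoRNAs goes with length or with RNA class was therefore not tested. This limit holds wherever the trends are removed for small RNA genes below.

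Of 74 tested genes in GENCODE's snoRNA class, 63 lie within a tested host gene on the same strand, 57 of them in an intron. The snoRNA had the higher difference in 49 of the 63, with a median of 0.60 against 0.18 for the hosts. In ribosomal protein genes, 22 of 23 snoRNAs lay above their host, with medians of 0.49 and -0.30, and these counts were the same for genes whose mean over both fractions was at least 1 RPKM. In the long noncoding hosts of the list above, 4 of 10 snoRNAs lay above the host, with medians of 0.86 and 0.85. That list leaves out other noncoding hosts, such as 2410006H16Rik, so these counts do not cover all long noncoding hosts. With the length and GC trends removed, 36 of the 63 snoRNAs lay above their host, with medians of 0.11 and 0.18. In ribosomal protein genes it was then 18 of 23, with medians of -0.01 and -0.25, and in the listed long noncoding hosts 1 of 10. Several of these pairs share a host, so they are not independent.

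The 4 snoRNAs below, which passed the test, are shown because they represent both structural families and both kinds of host. Snord34, in an intron of Rpl13a, had 88.9 RPKM in nuclear and 44.8 in total RNA, a difference of 1.31 (SE 0.12, limma adjusted p = 4.0e-05), while Rpl13a itself was at -0.26 and not called. Snora64, in an intron of Rps2, had 54.6 and 31.96 RPKM (1.09, limma adjusted p = 0.00486), with Rps2 at -0.06. For Snord49b, in the noncoding gene 2410006H16Rik, the levels were 39.3 and 26.1 RPKM (0.91), with a host difference of 0.36 that was not called. Snora26, in an intron of Dancr, had 121 and 80.7 RPKM (0.91), beside the host's 0.94. With the length and GC trends removed, Snord34 remained called at 0.67 (limma adjusted p = 0.00246), whereas Snora64 (0.66, limma adjusted p = 0.0504), Snora26 (0.38) and Snord49b (0.23) did not pass. The annotated sequences (GENCODE vM21, mm10, DNA letters) are given 5′ to 3′. In the C/D box family, capitals mark the TGATG of the C box and the last CTGA, and in the H/ACA family they mark the ACA that stands 3 bases before the end.
Snord34 (chr7:45126601-45126670, minus strand): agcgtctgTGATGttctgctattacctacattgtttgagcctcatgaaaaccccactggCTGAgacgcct
Snord49b (chr11:62603079-62603150, plus strand): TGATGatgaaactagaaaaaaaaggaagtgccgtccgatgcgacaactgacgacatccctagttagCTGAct
Snora64 (chr17:24720772-24720905, plus strand): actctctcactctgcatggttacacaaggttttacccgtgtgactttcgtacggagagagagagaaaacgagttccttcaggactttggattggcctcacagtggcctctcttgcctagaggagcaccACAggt
Snora26 (chr5:74093530-74093650, plus strand): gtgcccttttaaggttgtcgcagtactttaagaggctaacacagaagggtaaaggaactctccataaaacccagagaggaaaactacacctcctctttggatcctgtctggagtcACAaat

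Searched on the sense strand of each annotated snoRNA, TGATG followed by CTGA occurred in 29 of 33 tested Snord genes (87.9%) and in 93.8% of all 97 Snord genes of the annotation. An ACA within the last 9 bases occurred in 28 of 30 tested Snora genes (93.3%) and in 95% of all 40. These motifs describe the family and were not compared with the fraction difference.

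**Figure D2:**
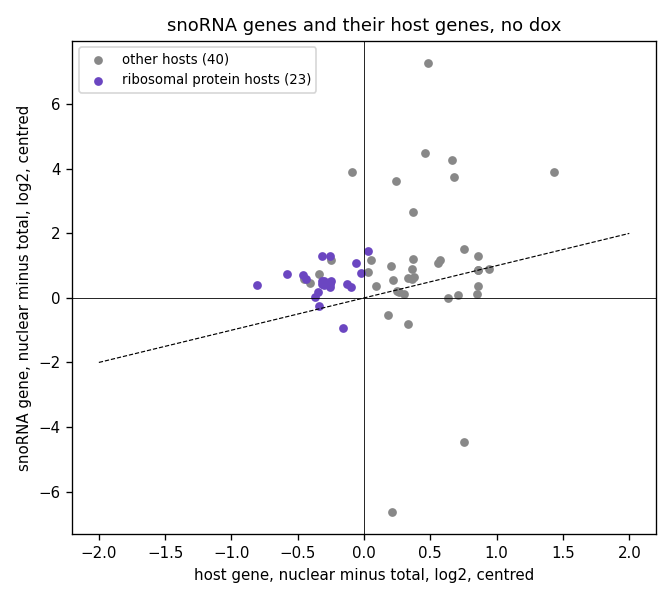
Each point is a snoRNA gene with a tested host gene on the same strand; the horizontal axis is the host's centred difference (log2), the vertical axis the snoRNA's, and the dashed line marks equal values. Of the 23 snoRNAs in ribosomal protein genes (purple), 22 lie above the line; the grey points more than 2 from 0 on the vertical axis had at most 5.22 RPKM in either fraction.

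Other small structured RNAs divided. Rmrp, the RNA of RNase MRP, was the most abundant of them at 19801 RPKM in nuclear and 17915 RPKM in total RNA (0.46, limma adjusted p = 0.036), and it was at 0.00 after quantile normalization. Rpph1, the RNA of RNase P, had 1624 and 1385 RPKM (0.55) and Rnu12, the U12 RNA of the minor spliceosome, 132 and 93.8 RPKM (0.81). Terc, the RNA template of telomerase, went the other way, with 277 and 519 RPKM and a difference of -0.59 (limma adjusted p = 0.005). In all, 4 of 8 tested RNAs of this kind were higher and 1 lower, and with the length and GC trends removed 1 was higher and Terc was still lower. The 51 tested miRNA genes had 3 calls higher and 1 lower and a median of 0.81, and with the length and GC trends removed 0 were higher, 2 lower and the median was 0.25. Mir1949, among the higher, is a snoRNA by GENCODE class and is counted there too. The lower call, Mir703 (0.0211 and 1.82 RPKM), entered through total RNA alone, and with the threshold on the mean of both fractions 3 of 28 were higher and 0 lower. The median SE of GENCODE's miRNA class was 2.37.

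Among RNA processing genes, those with detained introns had 12 calls, all of which were lost without centring. Detained introns are introns that stay in otherwise spliced, nuclear transcripts, and of 31 tested genes known for them 12 (38.7%) were higher and 0 lower, with a median of 0.33. Without centring 0 of the 31 were called higher and the median was 0.01. Ccnl2, a cyclin tied to splicing, had 17.2 and 13.8 RPKM (0.63), Srrm2, a large speckle protein, 70.5 and 56.97 RPKM (0.62), and Clk1, a kinase of SR proteins, 8.80 and 7.80 RPKM (0.49). The SR splicing factors themselves were all above 0, but 2 of 12 passed, Srsf7 (0.40) and Srsf2 (0.37). hnRNP genes had 1 call in 28, Hnrnpl (0.35). After quantile normalization these counts were 4 of 12 and 8 of 28. Without centring 0 SR genes were called, with a median of -0.10. Of the hnRNP genes 0 were then higher and 7 lower, with a median of -0.13. Genes of the nuclear pore (6 of 29 higher, 0 lower) and of replication licensing (7 of 32 higher, 0 lower) had medians of 0.27 and 0.26, each slightly below 0 without centring. Nup210, a membrane pore protein, had 4.66 and 2.60 RPKM (1.16), and Mcm10, a replication initiation factor, 7.89 and 5.36 RPKM (0.87). Of 210 Zfp genes, which mostly encode zinc finger DNA-binding proteins, 20 (9.52%) were higher and 6 (2.86%) lower, a share of higher calls near the 10.7% of all genes.

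The largest differences on the nuclear side were not in these classes. Lin28a, an RNA-binding protein that blocks let-7 miRNA maturation (mm10 chromosome 4, 134003330 to 134018841, minus strand), had 5.53 RPKM in nuclear and 0.244 RPKM in total RNA. Its difference of 4.81 (95% interval 4.34 to 5.28, limma adjusted p = 4.13e-07) is a 28-fold shift, the largest among called genes of at least 5 RPKM in the higher fraction. Its relative Lin28b had 2.26 and 3.09 RPKM and was not called (-0.13, limma adjusted p = 0.671). Kis2 followed with 5.33 and 0.549 RPKM (3.59, limma adjusted p = 8.79e-06). This noncoding transcript (mm10 chromosome X, 52742563 to 52744960, minus strand) runs into the miR-106a cluster on the same strand. Both genes were thus above 5 RPKM in nuclei and below 1 RPKM in whole cells, and entered through nuclear RNA alone.

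Fblim1 and other genes of unlike function came next. Fblim1, an adaptor of filamin at cell adhesions, had 11.8 and 2.45 RPKM (2.58, SE 0.13, limma adjusted p = 5.86e-07). Pdzd4, a PDZ domain protein, had 7.43 and 1.64 RPKM (2.49), and Fabp3, a fatty acid carrier, 8.19 and 1.91 RPKM (2.41). Aire, best known as the thymic regulator of self-antigen expression, had 5.32 and 1.498 RPKM (2.14). Slc27a2, an acyl-CoA synthetase for long fatty acids, had 6.58 and 2.82 RPKM (1.54), and Dclk2, a doublecortin-like kinase, 5.46 and 2.21 RPKM (1.62). Bex2 (6.76 and 3.20 RPKM, 1.40) and the cell-surface proteoglycan gene Gpc3 (9.03 and 4.23 RPKM, 1.41) completed the X-linked members of the upper end.

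**Figure D3:**
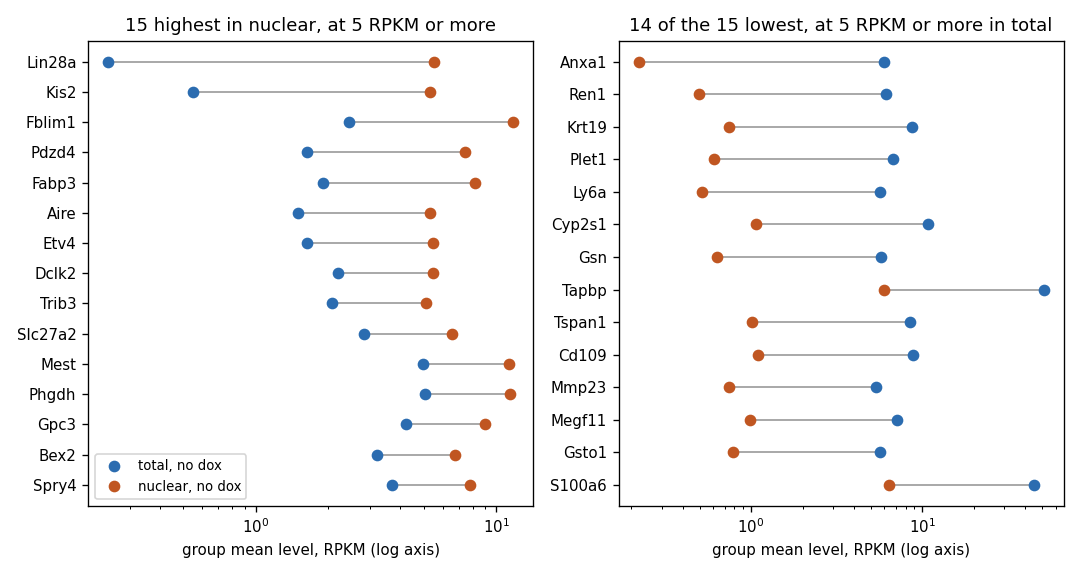
Group mean levels in RPKM on a log axis for the 15 called genes with the highest and 14 of the 15 with the lowest centred difference among genes of at least 5 RPKM in the higher fraction; orange is nuclear RNA, blue total RNA, both without dox. The widest gaps are those of Lin28a (5.53 against 0.244 RPKM) and Anxa1 (0.221 against 5.97 RPKM).

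Genes of the amino acid stress response, most of them targets of the transcription factor ATF4, were mostly higher in nuclear RNA. Of 23 tested members 17 (73.9%) were higher, 1 was lower and the median was 0.79. Phgdh, the enzyme that starts serine synthesis, had 11.4 RPKM in nuclear and 5.07 in total RNA (1.49, SE 0.11, limma adjusted p = 1.2e-05). Asns, asparagine synthetase, had 38.6 and 27.2 RPKM (0.82). Trib3, a pseudokinase induced by stress, had 5.11 and 2.07 RPKM (1.62), Chac1, which degrades glutathione, 1.67 and 0.345 RPKM (2.59), and the secreted factor Stc2 1.62 and 0.627 RPKM (1.69). Atf4 itself passed with a smaller difference, 26.7 and 24.7 RPKM (0.43). Only Ddit4, an inhibitor of mTORC1 signalling, was called lower, at 3.14 and 6.33 RPKM (-0.69). Cytosolic aminoacyl-tRNA synthetases, several of which are ATF4 targets too, had 6 of 20 higher and 1 lower, and 11 higher and 0 lower after quantile normalization. Without centring 2 of the 20 were higher and 2 lower. Sars had 12.7 and 9.07 RPKM (0.80) and Qars, the member called lower, 13.7 and 23.5 RPKM (-0.46).

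Feedback genes of the FGF-ERK pathway, which pushes ESC toward differentiation, formed a similar group in a list assembled after values had been seen. Of 12 tested, 8 were higher and 1 lower, with a median of 0.64. Sprouty genes, which restrain the pathway, included Spry4 (7.79 and 3.71 RPKM, 1.39) and Spry2 (4.77 and 2.30 RPKM, 1.37). Dusp4, an ERK phosphatase, had 1.25 and 0.248 RPKM (2.64), Dusp6 2.48 and 2.14 RPKM (0.53), and the ETS factors Etv4 and Etv5 had 5.48 and 1.63 RPKM (2.06) and 9.44 and 7.94 RPKM (0.56). The ligand Fgf4 was the member called lower, at 23.6 and 60.5 RPKM (-1.04, limma adjusted p = 0.00013). Early response genes split, with 8 of 21 higher and 7 lower. Myc had 1.56 and 0.413 RPKM (2.23) and Egr1 3.48 and 1.30 RPKM (1.73), whereas Jun had 0.429 and 2.08 RPKM (-1.96) and Btg2 1.66 and 6.48 RPKM (-1.65). Short-lived mRNAs therefore stood on both sides.

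The genes of the opposite end varied in function. They were chosen for their low differences, and most of those below were under 1 RPKM in nuclear RNA and entered through total RNA alone. Anxa1, a membrane-binding annexin (mm10 chromosome 19, 20373428 to 20390944, minus strand), had 0.221 RPKM in nuclear and 5.97 RPKM in total RNA, a difference of -4.43 (95% interval -5.82 to -3.04, limma adjusted p = 0.00056). Plet1, a surface protein of placental and epithelial progenitors, had 0.610 and 6.73 RPKM (-3.15), and the GPI-anchored Ly6a 0.520 and 5.65 RPKM (-3.12). Gsn, an actin-severing protein, had 0.635 and 5.72 RPKM (-2.85), Tspan1, a tetraspanin, 1.01 and 8.43 RPKM (-2.75), and Cd109, a GPI-anchored protein, 1.09 and 8.85 RPKM (-2.70). The cytochrome P450 gene Cyp2s1 had 1.07 and 10.7 RPKM (-3.002), and Gsto1, a glutathione transferase, 0.786 and 5.66 RPKM (-2.53). Megf11, a membrane protein with EGF repeats, had 0.983 and 7.10 RPKM (-2.53) and the metalloprotease gene Mmp23 0.738 and 5.33 RPKM (-2.54). Ren1, the renin gene, had 0.496 and 6.10 RPKM (-3.30), but reads of its near-identical copy Ren2 could have been assigned to it. In bulk RNA, fewer cells of a kind and less of the RNA per cell cannot be told apart.

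Members of several families followed, counted over tested genes only, in lists assembled after values had been seen. The tested genes were 5 of 37 keratins, 7 of 12 annexins, 4 of 9 S100 genes, 7 of 18 claudins and 3 of 9 galectins. Keratins, the intermediate filaments of epithelia, had 4 of 5 tested members lower and 0 higher, with a median of -2.31. Krt8 (mm10 chromosome 15, 101996698 to 102004482, minus strand) had 4.40 RPKM in nuclear and 27.8 in total RNA (-2.34, SE 0.11, limma adjusted p = 5.0e-07). Its partner Krt18 had 1.14 and 3.35 RPKM (-1.23), Krt19 0.741 and 8.65 RPKM (-3.23) and Krt17 3.11 and 19.3 RPKM (-2.31). Krt42, at 5.36 and 8.29 RPKM, was the member that did not pass (-0.31, limma adjusted p = 0.16). Annexins had 6 of 7 lower, among them Anxa3 (0.103 and 3.13 RPKM, -4.59) and Anxa2 (5.19 and 28.3 RPKM, -2.13), and Anxa6 was higher (5.23 and 4.22 RPKM, 0.62). All 4 tested S100 genes, which encode small calcium-binding proteins, were lower, led by S100a6 at 6.35 and 44.9 RPKM (-2.50). Claudins, which seal tight junctions, had 4 of 7 lower, Cldn7 at 3.28 and 18.2 RPKM (-2.16) and Cldn3 at 4.08 and 13.7 RPKM (-1.43). Galectins had 2 of 3 lower, with Lgals3 at 6.98 and 28.8 RPKM (-1.73). Krt19 and Anxa3 were below 1 RPKM in nuclear RNA and entered through total RNA alone.

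Antigen presentation by MHC class I, whose proteins load peptides in the ER, included some of the lowest genes. In this list, also assembled after values had been seen, 7 of 14 tested genes were lower and 1 higher, and the median was -1.77. Over members whose mean of both fractions was at least 1 RPKM, 4 of 10 were lower and the median was -0.37. Tapbp, the tapasin that holds class I molecules at the peptide transporter (mm10 chromosome 17, 33915899 to 33929292, plus strand), had 5.96 RPKM in nuclear and 51.0 in total RNA (-2.78, SE 0.10, limma adjusted p = 1.3e-07). The transporter subunits Tap1 (0.137 and 2.66 RPKM, -3.95) and Tap2 (0.132 and 2.22 RPKM, -3.74) and the peptide trimmer Erap1 (0.203 and 3.70 RPKM, -3.87) had lower values still, but they were below 1 RPKM in nuclear RNA and entered through total RNA alone. The class I heavy chains H2-D1 (1.20 and 8.41 RPKM, -2.49) and H2-K1 (1.49 and 6.43 RPKM, -1.79) and their light chain B2m (1.51 and 6.35 RPKM, -1.76) were lower as well. H2 genes share sequence, so reads could have been divided between them. H2-T23 was the member called higher, at 1.43 and 0.878 RPKM (1.02, limma adjusted p = 0.036).

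Markers of other cell types that a culture could hold were read in the same columns. All 10 stem cell markers were tested, and their summed level was 912 RPKM in nuclear and 1830 RPKM in total RNA. The markers found in the table for fibroblasts, endoderm and trophectoderm (4 each) and for mesoderm (3) stayed below 1 RPKM in both fractions. Summed, fibroblast markers had 0.334 and 0.800 RPKM, endoderm 0.145 and 0.227, trophectoderm 0.234 and 0.423, and mesoderm 0.0489 and 0.240 RPKM. Acta2 and Dcn, Sox17, Cdx2 and Hand1 were listed at 0 in nuclear RNA, and T was listed at 0 in total RNA. Of the 3 neuroectoderm markers, Nes was tested and did not pass (1.18 and 1.98 RPKM, -0.43), and their sums were 1.72 and 2.19 RPKM. These sums are levels without centring, and each was lower in nuclear than in total RNA, as was the median gene. Members went both ways, with Pax6 (0.162 and 0.0577 RPKM), Sox1 (0.382 and 0.153), Gata3, Col1a1 and Dab2 higher in nuclear RNA, and Dppa5a made up most of the stem cell sum. Their part in the result was not tested.

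Messenger RNAs of the secretory route were mostly below the median gene. Lysosomal enzymes and membrane proteins had 19 of 27 lower (70.4%) and 1 higher, with a median of -0.52. Lamp1, the main lysosomal membrane protein, had 25.7 RPKM in nuclear and 73.6 in total RNA (-1.20) and Grn, progranulin, 13.6 and 38.9 RPKM (-1.21). Hexa, a lysosomal hexosaminidase subunit, was the member called higher, with 5.87 and 4.32 RPKM (0.76). ER chaperones and folding enzymes had 17 of 41 lower and 1 higher (median -0.35), but 7 of 41 lower after quantile normalization. They included Calr, calreticulin, at 110 and 198 RPKM (-0.53) and Os9, a lectin of ER quality control, at 2.23 and 5.44 RPKM (-0.97). Serpinh1, the collagen chaperone, was higher at 6.43 and 3.98 RPKM (1.01), and Hspa5, the main ER chaperone, was not called at 96.1 and 135 RPKM (-0.17, limma adjusted p = 0.243).

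Cholesterol synthesis and uptake had 13 of 22 tested genes lower and 0 higher, with a median of -0.62. Sqle, squalene epoxidase, had 8.204 RPKM in nuclear and 22.1 in total RNA (-1.12, SE 0.15, limma adjusted p = 0.00034), and Insig1, the sterol sensor partner, 3.75 and 9.65 RPKM (-1.05). Hmgcs1, which makes HMG-CoA, had 5.87 and 14.0 RPKM (-0.94). Sqle and Insig1 were thus more than 2-fold further toward total RNA than the median gene.

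Membrane and matrix genes were spread on both sides, with more below. Collagens, laminins and integrins had 18 of 27 lower and 3 higher (median -0.49). Col4a1, a basement membrane collagen, had 2.73 and 9.85 RPKM (-1.54), Itgb4, the hemidesmosome integrin, 1.45 and 5.56 RPKM (-1.62), and Lamb3, an epithelial laminin chain, 0.265 and 1.80 RPKM (-2.44). Lamb1 (12.5 and 6.62 RPKM, 1.23) and Lama1 (12.2 and 7.31 RPKM, 1.05), chains of the laminin of the early embryo, were higher instead. Cell-surface receptors and adhesion genes had 34 of 77 lower and 11 higher (median -0.32), with Cd24a at 3.54 and 20.6 RPKM (-2.22), Cdh13 at 0.267 and 2.72 RPKM (-3.03) and Sort1 on the other side at 1.32 and 0.594 RPKM (1.47). Solute carriers had 42 of 158 lower and 15 higher (median -0.23). Slc6a8, the creatine transporter, had 9.24 and 39.5 RPKM (-1.78, limma adjusted p = 1.4e-06). The targets of p53 had 8 of 24 lower and 0 higher, Cdkn1a, a cell cycle inhibitor, at 3.09 and 10.4 RPKM (-1.44) and Perp, a desmosome-linked protein, at 2.49 and 10.6 RPKM (-1.78).

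**Figure D4:**
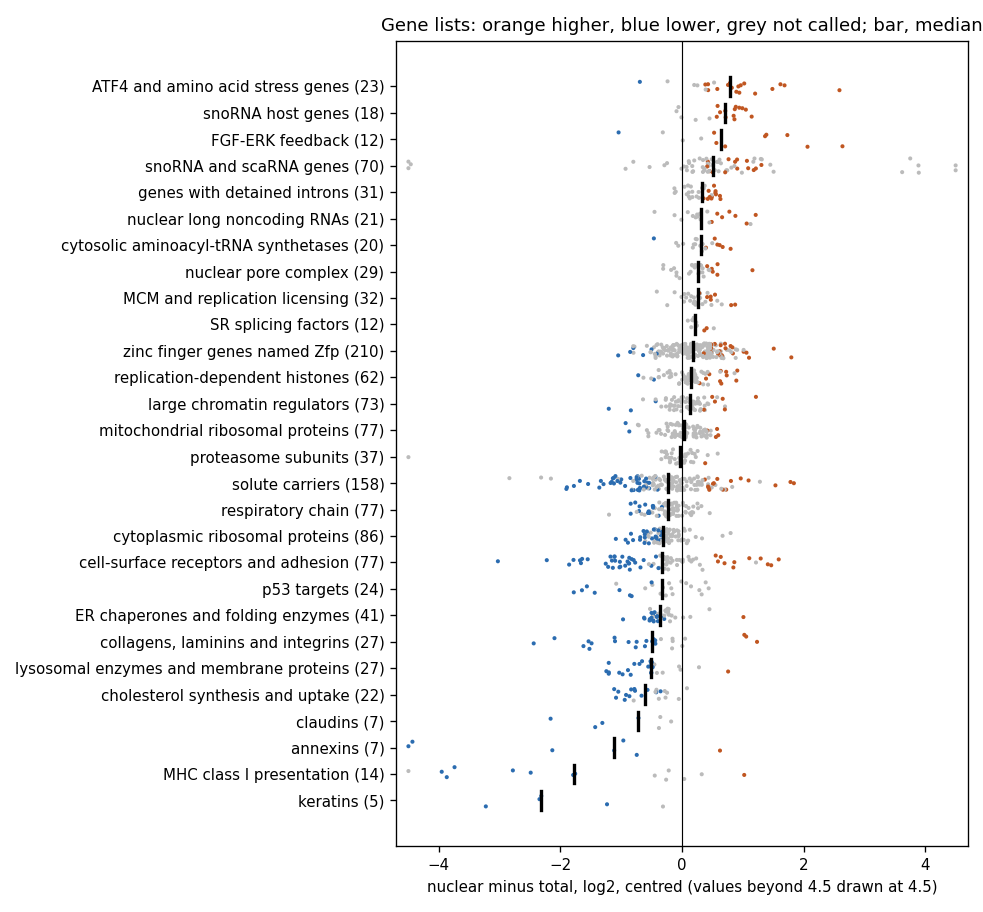
Centred differences (log2) of the tested genes of 28 lists, a point per gene and a black bar at the median; orange was called higher, blue lower, and values beyond 4.5 are drawn at 4.5. Medians run from 0.79 for the ATF4 list to -2.31 for the keratins.

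Genes of protein synthesis and energy metabolism were near or below the median gene. Cytoplasmic ribosomal proteins, among the most abundant mRNAs, had 27 of 86 lower (31.4%) and 0 higher, with a median of -0.32. After quantile normalization 10 of the 86 were lower, with a median of -0.16, and without centring 75. Of all genes in the highest of 10 bins of mean level, 26.5% were called lower, with a median of -0.10. Rps29 had 130 RPKM in nuclear and 289 in total RNA (-0.84) and Rps28 had 55.3 and 128 RPKM (-0.89), and ribosomal protein pseudogenes can take some of these reads. Respiratory chain subunits had 14 of 77 lower and 0 higher (median -0.23). Their share of lower calls, 18.2%, was near the 15.3% of all genes. The lower calls became 7 after quantile normalization and 52 without centring. Among the 14 were Ndufb4 at 11.02 and 24.6 RPKM (-0.84) and Atp5d at 13.5 and 27.5 RPKM (-0.71). Mitochondrial ribosomal proteins had 4 of 77 higher and 2 lower, and proteasome subunits 1 of 37 higher and 0 lower, with medians of 0.04 and -0.03. Translation factors had 5 of 60 higher and 2 lower. Actins, tubulins and thymosins had 6 of 23 lower and 3 higher, Tubb2a at 9.31 and 24.4 RPKM (-1.07), Tmsb4x at 33.1 and 66.2 RPKM (-0.68) and Tubb3 higher at 5.67 and 5.02 RPKM (0.49). Replication-dependent histones, whose mRNAs lack a poly(A) tail, had 10 of 62 higher and 2 lower (median 0.15), and 21 higher and 0 lower after quantile normalization. Without centring 6 of the histones were higher and 9 lower, with a median of -0.17. Hist1h3d had 74.995 and 49.7 RPKM (0.91) and Hist1h4n 29.2 and 59.8 RPKM (-0.72), though copies of a histone type can share reads.

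Pluripotency genes divided. Of 41 genes of the naive state 13 were lower and 7 higher, and the median was -0.15. Lefty1, an inhibitor of Nodal signalling (mm10 chromosome 1, 180935022 to 180938400, plus strand), had 21.1 RPKM in nuclear and 136 in total RNA (-2.37, SE 0.10, limma adjusted p = 3.5e-07), and Lefty2 had 6.94 and 23.8 RPKM (-1.46). In the Nodal pathway, listed after values had been seen, 6 of 15 genes were lower and 1 higher. Nodal itself had 10.2 and 21.8 RPKM (-0.78) and its coreceptor Tdgf1 35.9 and 70.8 RPKM (-0.66), whereas Smad7, an intracellular inhibitor, was higher at 11.96 and 11.3 RPKM (0.40). Dppa5a, an abundant ESC mRNA, had 617 and 1394 RPKM (-0.86), Nanog 30.3 and 56.98 RPKM (-0.60), and Spp1, osteopontin, 29.9 and 84.9 RPKM (-1.19). Il6st, the receptor subunit through which leukemia inhibitory factor signals, had 8.61 and 22.98 RPKM (-1.10). Higher members included Nr0b1 (15.9 and 7.61 RPKM, 1.38), Tcl1 (7.81 and 5.77 RPKM, 0.75), Nr5a2 (3.81 and 2.89 RPKM, 0.72) and Utf1 (33.5 and 29.2 RPKM, 0.51), all tied to the ESC transcription network. Of the core factors, Pou5f1 (63.2 and 94.1 RPKM, -0.26) and Sox2 (28.7 and 39.6 RPKM, -0.15) did not pass, whereas Nanog, given above, was called lower. Esrrb (24.9 and 26.5 RPKM, 0.23) and Zfp42 (50.5 and 55.8 RPKM, 0.17) did not pass either, and were at -0.09 and -0.14 without centring. Dnmt3l, a cofactor of de novo DNA methylation, had 24.8 and 13.3 RPKM (1.22).

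The imprinted genes, which are expressed from a parental allele and were listed with values known, had 8 of 23 members higher and 5 lower. Mest had 11.4 RPKM in nuclear and 4.95 in total RNA (1.51) and Rtl1 5.32 and 3.07 RPKM (1.11). Plagl1, a zinc finger factor, had 2.54 and 8.28 RPKM (-1.39) and Ndn 0.476 and 1.63 RPKM (-1.46). Metallothioneins, which bind zinc and copper and were also listed after values had been seen, were divided as well. Mt1 was at 91.1 and 268 RPKM (-1.24), Mt2 at 194 and 415 RPKM (-0.78) and Mt3 at 1.28 and 0.287 RPKM (2.47). Of the small RNA silencing machinery, 3 of 21 genes were higher and 1 lower. Dgcr8, the partner of Drosha, had 7.93 and 6.79 RPKM (0.54), Trim71, a let-7 target, 17.6 and 14.8 RPKM (0.56), and Mov10, a helicase bound to Argonaute, 14.4 and 35.6 RPKM (-0.99). Ago2 (mm10 chromosome 15, 73095844 to 73184935, minus strand) had 8.65 and 9.12 RPKM and was not called (0.24, SE 0.16, limma adjusted p = 0.292), and it was at -0.08 without centring.

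Other families had a share of higher calls from 6.06% (Gm genes) to 14.4% (RIKEN genes), beside 10.7% of all genes, or held few members. All but the -ps pseudogenes (23.8%) had a smaller share of lower calls than the 15.3% of all genes. Those shares ran from 0% of Sm and snRNP genes to 12.5% of glycolytic enzymes. Spliceosomal Sm and snRNP genes had 4 of 28 higher and 0 lower, Snrnp70 among them (23.3 and 17.3 RPKM, 0.75), and mRNA export genes of TREX had 2 of 16 higher, Thoc5 (0.47) and Ddx39b (0.45). RNA polymerase II subunits had 1 of 12 lower, Polr2j (2.41 and 4.69 RPKM, -0.64). Large chromatin regulators had 6 of 73 higher and 3 lower, with Baz2b at 1.97 and 5.66 RPKM (-1.21). Deadenylation and decay genes had 7 of 57 higher and 3 lower, and the higher ones included the exosome subunits Exosc2 (0.77), Exosc7 (0.72) and Exosc6 (0.65), while the deadenylation adaptors Tob1 (3.45 and 9.48 RPKM, -1.14) and Btg2 were lower. Cell division genes had 8 of 75 higher and 5 lower, among them the cyclin Ccnb2 at 4.98 and 10.7 RPKM (-0.79). Chaperonin and heat shock genes had 5 of 61 higher and 7 lower, Hspb1 at 97.7 and 204 RPKM (-0.74). Glycolytic enzymes had 4 of 16 higher and 2 lower, among them Hk2 higher at 18.05 and 12.97 RPKM (0.79) and Hk1 lower at 1.88 and 6.14 RPKM (-1.39). Opposite-strand transcripts had 4 of 28 higher and 1 lower, pseudogenes named -ps 5 of 21 lower and 0 higher, RIKEN clone genes 37 of 257 higher and 21 lower, and predicted Gm genes 8 of 132 higher and 10 lower.

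Across bins of all tested genes, median differences varied little with gene length and base composition. The bins do not resolve genes as short as snoRNAs, whose list median went from 0.51 to 0.04 with the length and GC trends removed. For these genes that step cannot separate length from RNA class. Over 10 bins of exon length, with medians from 1060 to 12600 bases, the median difference stayed between -0.09 and 0.04. Over 10 bins of exon GC content it stayed between -0.05 and 0.06, but the share of called genes went with GC. From the lowest to the highest GC bin the share higher went from 6.0% to 14.6% and the share lower from 6.2% to 17.7%, with 19.8% in the ninth bin. By mean level, the share of genes called lower was 18.9% in the lowest of 10 bins, 9.37% in the second and 26.5% in the highest, and the share called higher was 11.8%, 7.62% and 13.6%. Genes with a single exon block had a median of 0.14 (475 genes).

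The same fractions with dox come from other libraries, 3 of nuclear and 2 of total RNA, but share the estimate of the residual spread. Ago2, the gene to be induced, stood at 2.39 RPKM in nuclear and 3.43 RPKM in total RNA of the columns labelled dox, below its levels without dox. If reads of the transgene were not counted there, these levels do not bear on the label, so these libraries are named by their label only. In the libraries labelled dox, 1381 of the 9714 genes were higher (14.2%) and 1480 lower (15.2%). Shared calls numbered 599 higher genes, which is 57.8% of the higher calls without dox and 43.4% of those with dox, and 943 lower genes, 63.5% and 63.7%. Calls in opposite directions numbered 1 for the higher and 16 for the lower genes. Across genes, which are not independent replicates, the differences without and with dox had a Pearson r of 0.64 and a Spearman rho of 0.673, and r was 0.769 over the 3635 genes of at least 5 RPKM. The test of the difference between these effects called 0 genes with limma, with 1310 at an unadjusted p under 0.05 and a smallest adjusted p of 0.0585. Its median SE was 0.257, against 0.182 for the comparison without dox.

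Both ends were present under either label. Lin28a had 22.5 RPKM in nuclear and 0.618 in total RNA in the libraries labelled dox (5.50), Fblim1 16.1 and 3.94 RPKM (2.35) and Phgdh 52.8 and 20.7 RPKM (1.67). Anxa1 had 0.192 and 5.08 RPKM (-4.40), Tapbp 6.63 and 54.6 RPKM (-2.72), Krt8 17.4 and 92.5 RPKM (-2.09) and Lefty1 24.4 and 147 RPKM (-2.26). Malat1 was lower in nuclear RNA there, with 77.3 and 140 RPKM (-0.54, limma adjusted p = 0.00728). The ATF4 list had medians of 0.79 without and 0.93 with dox and the keratins -2.31 and -1.83. Some lists moved more between the labels. Cytoplasmic ribosomal proteins had medians of -0.32 and 0.24, respiratory chain subunits -0.23 and 0.20, histones 0.15 and 0.91, and detained-intron genes 0.33 and -0.12. Calls differed too. In the libraries labelled dox, 18 ribosomal protein genes were higher and 2 lower, and 59 histones were higher and 0 lower. Over the 10 bins of exon length, the median with dox went from 0.26 for the shortest to -0.18 for the longest genes. None of these shifts is called for a single gene by the test of the difference, whose larger SE limits what it can call. The libraries labelled dox were not the same libraries.

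**Figure D5:**
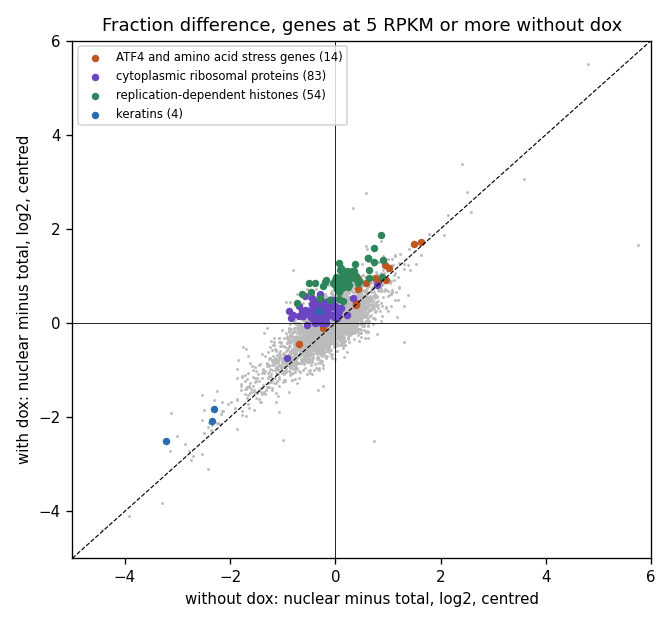
Centred difference (log2) without dox, horizontal, against the same in the libraries labelled dox, vertical, for the 3635 genes of at least 5 RPKM without dox; the dashed line marks equal values and colours mark 4 lists, with the number of genes drawn. Lin28a is the point at the upper right (4.81 and 5.50), and most histones (green) lie above the line. The keratins (blue) are at the lower left, apart from Krt42 (-0.31 and 0.24).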

How the data were processed

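Reads were handled with bcl2fastq 2.17.1 and TopHat on the mm10 build, per the submitters' processing notes. RPKM and an ANOVA were computed in Partek 6.6, per the file headers. Counting and annotation are not given in the sources used here. The authors deposited group means on the log2 scale, log2(RPKM + 0.001). The authors also deposited, for dox against no dox in each fraction, p-values and q-values, ratios, and a signed fold change read here as a score. The ratio, q-value and signed fold change were not used.

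Only group means were analysed here. The residual standard deviation of each gene was recovered from its 2 deposited p-values: with 6 residual degrees of freedom both gave the same value within 0.001 for 100% of 17367 genes (5 degrees 15.1%, 7 degrees 18.2%). Genes present in 1 group alone gave the number of libraries: 352 of 400 such genes pointed to 2 nuclear libraries and 742 of 963 to 3 total libraries without dox. Which libraries of the 12 labelled stayed out is unknown. limma 3.58.1 in R 4.3.3 moderated the variances along a trend on level (median prior degrees of freedom 5.08; median residual SD 0.194). Two-sided p-values were adjusted over 9714 genes. On simulated data with 200 of 9714 genes changed, 62% of those changed by 1 and 97% of those changed by 2 (log2) were called, and 5.92% of calls were false. The simulation used independent normal noise with SDs capped at 1, and far fewer changed genes than the 25.9% called in the data. Its rates therefore need not hold for these data, nor for genes of larger spread.

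Members and gene lists were chosen with earlier results of these data known, and 10 of 59 lists were added after the values were seen. The lists were not tested. Named genes are the 15 highest and 15 lowest called genes of at least 5 RPKM, up to 4 called list members in the main direction and 2 in the other, and the markers. Other members, such as Gas5, Clk1, Asns, Atf4, Spry2, Dusp6, Etv5, Il6st, Hspa5, Lin28b, Nr5a2, Spp1 and the H2 genes, were named after their values were seen. Coordinates are GENCODE vM21, matched by symbol for 9668 of the tested genes; protein features were not used here. Some genes are not reported here.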

Additional observations from a re-analysis of the deposited data

How the results depend on the processing

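Alternatives covered centring, quantile normalization, the filter on low values, the pseudocount, variance moderation, the number of libraries, length and GC trends and, chosen after seeing the data, moderation without a trend. Counts of higher and lower genes were 360 and 3364 without centring, and 686 and 747 with a minimum of 5 RPKM (3635 genes tested; 430 and 741 of these calls were shared). After quantile normalization they were 1270 and 1243, so that 50.5% of the calls were higher, against 41.1%. Under the other alternatives they stayed within 825 to 1367 higher and 1191 to 1791 lower, against 1036 and 1484. Of 298 named genes, the sign changed without centring for Neat1 (-0.14), Xist (-0.07), Tsix (-0.06), Tug1 (-0.00), Ago2 (-0.08), Esrrb (-0.09), Zfp42 (-0.14), Snhg11 (-0.09), Platr4 (-0.01), Platr10 (-0.22) and Mir124a-1hg (-0.02), none of them called. It also changed for Mir6516 (-0.07 without the length trend, -0.11 without length and GC trends), for Rps2 (0.10 after quantile normalization, 0.03 with 5 RPKM, 0.02 without length and GC trends) and for Snhg14 (0.02 with a pseudocount of 1 RPKM). Calls lost were most numerous without centring (65) and without moderation (48). No paired analysis was possible because the table holds group means. Leaving out each library was not run for the same reason. With 2 nuclear and 3 total libraries of 15.3 to 18.9 M reads, depth and the number of libraries limit what can be called for small differences and low genes.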
